A study of Mus musculus with 52 samples.

Results

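Collagen genes were taken as every gene of the deposited read-density tables whose symbol reads Col, a number, a and a number, with 1 transcript kept per gene, the longest of at least 250 bp. This rule gave 44 genes of the 23043 in the tables, and none was left out. They fell into 11 fibrillar collagens, 9 network and basement membrane collagens (types IV, VIII, and X), 6 chains of type VI, 9 fibril-associated collagens with interrupted helices (FACIT collagens), 2 multiplexins, 4 transmembrane collagens, the anchoring fibril collagen Col7a1, and the unclassed genes Col26a1 and Col28a1.

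The study mapped mono-, di-, and trimethylated H3K4 by ChIP-seq in mouse embryonic fibroblasts (MEFs) immortalized by the 3T3 method, to ask what the methyltransferase MLL2 (gene Kmt2d) does to chromatin. In F/F cells both MLL2 alleles carry loxP sites. FC/FC cells are F/F cells given tamoxifen for 24 h, after which the targeted exons are excised from both alleles. By the paper's methods, cells were then washed and, unless stated otherwise, kept growing for several days until harvest. All FC/FC libraries are thus treated and all F/F libraries untreated, so that excision and exposure to tamoxifen cannot be told apart here, and the cells are those of an established culture rather than of a tissue. Each mark has 3 libraries per genotype, which the design text calls independent, and the total reads over transcripts were 26714377 to 49990775 per library.

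Collagens are trimers wound from alpha chains, each chain with its own gene. Fibrillar collagens build the cables of connective tissue, type IV collagens the sheet of the basement membrane, and type VI collagens beaded microfibrils around cells, while FACIT collagens decorate the surface of fibrils. Fibroblasts are the main source of types I, III, V, and VI in the body. At active genes, H3K4me3 sits around the start site, H3K4me2 reaches further out, and H3K4me1 flanks both and marks enhancers.

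The libraries were checked in a few ways that touch the collagen genes. Of 10 fibroblast marker genes, 8 had an H3K4me3 peak at the start in all 6 libraries (Thy1 and Fap had not), against 0 of 5 haematopoietic, 0 of 4 muscle, 1 of 5 endothelial, 2 of 6 epithelial, 1 of 4 bone, 1 of 4 neural, and 3 of 6 cartilage markers (Sox9, Hapln1, and Sox6). The read density over the whole of Kmt2d was 2.44 to 2.83 RPKM in F/F and 2.65 to 2.91 RPKM in FC/FC cells for H3K4me3, with overlap. For H3K4me2 it was 2.46 to 2.55 and 2.69 to 2.89 RPKM, with no overlap (limma adjusted p = 0.090), and for H3K4me1 0.71 to 0.81 and 0.76 to 0.82 RPKM. These values cannot check the excision, which removes a few exons. In its label, H3K4me2 FC/FC replicate 1 carries the catalogue number of the H3K4me1 antibody. It was kept as H3K4me2, and results that rest on it are given with and without it. This library had 58585 peaks, and 14463 of all genes had a peak within 1000 bp of the start. The H3K4me2 libraries, this one included, had 56112 to 70437 peaks and 14268 to 14628 such genes. The H3K4me1 libraries had 81444 to 120661 peaks and 10701 to 12430 such genes. A level here is a read density per kilobase of transcript (RPKM), scaled to the reads of the library summed over all listed transcripts. It is averaged over the whole transcript and 500 bp on either side, so that a mark at the start is diluted in a long gene. This matters for collagens, whose median width was 114378 bp, against 15616 bp over all genes.

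The upstream sequences of 4 genes are shown first, because they mark the range of collagen starts to which the marks below belong. They are from RefSeq (build GRCm38.p6, the same assembly as mm10), on the strand of the gene, without exonic bases, and capitals mark a TATA box (TATAAA) or a GC box (GGGCGG) found by a script. Col3a1 is shown because its start carried all 3 marks without a single CpG (chr1:45311388-45311537), Col1a2 because it is the partner of the most strongly marked collagen (chr6:4505370-4505492), Col10a1 because it had the largest positive fold change (chr10:34389831-34389980), and Col13a1 because it held the gained peak region (chr10:61979109-61979258).
Col3a1: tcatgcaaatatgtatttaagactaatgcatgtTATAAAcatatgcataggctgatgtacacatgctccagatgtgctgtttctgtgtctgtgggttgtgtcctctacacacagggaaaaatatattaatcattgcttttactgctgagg
Col1a2: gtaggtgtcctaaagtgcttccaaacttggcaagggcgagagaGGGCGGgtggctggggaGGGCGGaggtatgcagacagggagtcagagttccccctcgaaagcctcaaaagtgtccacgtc
Col10a1: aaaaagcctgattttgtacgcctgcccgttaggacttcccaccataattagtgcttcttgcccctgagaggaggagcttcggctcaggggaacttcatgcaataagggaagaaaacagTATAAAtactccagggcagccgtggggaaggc
Col13a1: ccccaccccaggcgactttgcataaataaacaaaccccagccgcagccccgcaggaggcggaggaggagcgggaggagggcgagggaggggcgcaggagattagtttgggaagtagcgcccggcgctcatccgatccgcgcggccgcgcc
The printed stretch of Col13a1 held no such motif on either strand, though its longer promoter window, described next, held a TATA box. Promoters, from 250 bases before to 50 after the start, were given for 35 of the 44 genes. Those of Col1a1, Col2a1, Col4a3, Col5a2, Col9a3, Col12a1, Col14a1, Col22a1, and Col26a1 were not used here. With both strands searched, the GC box was in 22 of the 35 collagen promoters, or 62.9%, against 47.2% of 17154 promoters of all genes. The CCAAT box (CCAAT) was in 12, or 34.3%, against 38.6%, and the TATA box in 5, or 14.3%, against 12.8%. The AP-1 site (TGANTCA) was in 1, that of Col6a1, or 2.86% against 7.34%. A match says only that these letters are in this window.

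Col1a1 had the highest level of every mark among the 44 collagens, and for H3K4me3 the other gene of type I collagen, Col1a2, came after it. Col1a1 (chr11:94936270-94951856 in mm10), which encodes the alpha 1 chain, had H3K4me3 levels of 13.2, 13.9, and 14.6 RPKM in F/F cells, and 12.6, 12.9, and 12.6 RPKM after excision. Every F/F library was above every FC/FC library, and the F/F mean of 13.9 ± 0.68 RPKM (SD, n = 3) was at the 96.8th percentile of all genes. Col1a2 (chr6:4505697-4541543), the gene of the alpha 2 chain, followed at 3.15, 3.90, and 3.89 RPKM in F/F and 2.99, 3.85, and 3.37 RPKM in FC/FC cells, where the genotypes overlapped. After these came Col6a1 and Col6a2, neighbours on chromosome 10 that encode chains of type VI collagen, at 2.43 ± 0.20 and 2.32 ± 0.14 RPKM in F/F cells. These 2 genes did not differ beyond their spread. Col5a1, whose chain starts fibril assembly, was next at 1.46 ± 0.07 RPKM, followed by the FACIT gene Col12a1 at 1.12 ± 0.03 RPKM and the basement membrane gene Col4a1 at 1.03 ± 0.06 RPKM. From Col8a2 (0.99 ± 0.16 RPKM) through Col4a2, Col6a3, and Col3a1 (0.90 ± 0.16 RPKM) to Col5a2 (0.88 ± 0.13 RPKM), neighbours in the order lay within their spread.

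**Figure D1:**
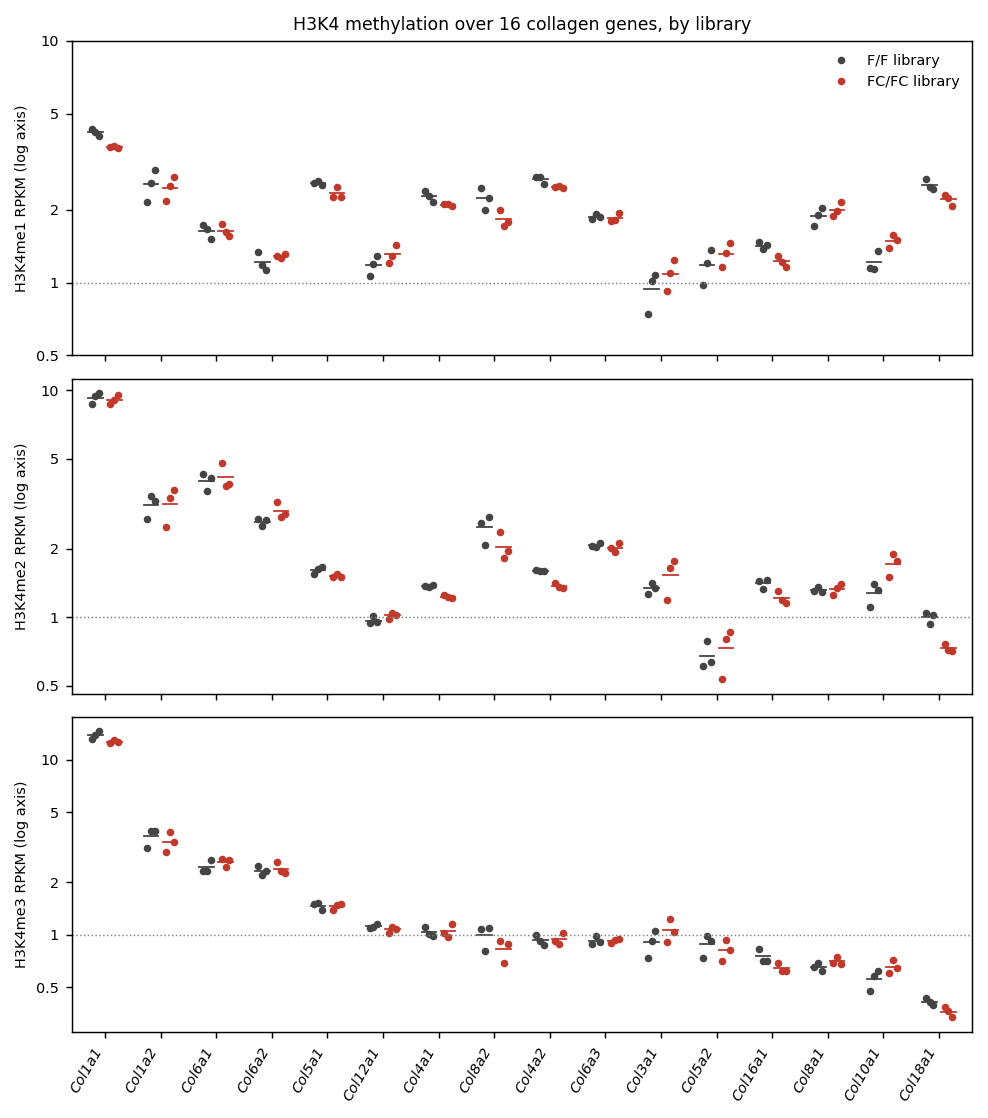
Level of each mark, in RPKM on a log axis, at the 16 collagen genes with the most H3K4me3 in F/F cells. Points are libraries (grey F/F, red FC/FC), short lines are means of 3, and the dotted line is at 1 RPKM. Col1a1 stands above the other genes for all 3 marks, and red and grey points of most genes intermix.

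For the other marks Col1a1 again came first, while the genes behind it differed. For H3K4me2, Col1a1 had 8.68, 9.45, and 9.71 RPKM in F/F and 8.66, 9.03, and 9.52 RPKM in FC/FC cells, so that the genotypes overlapped. Col6a1 came next at 3.99 ± 0.34 RPKM in F/F cells, followed by Col1a2 at 3.13 ± 0.37 RPKM. For H3K4me1, Col1a1 had 4.32, 4.21, and 4.05 RPKM in F/F and 3.65, 3.67, and 3.61 RPKM in FC/FC cells, all FC/FC values lying below all F/F values. Its F/F mean of 4.19 ± 0.14 RPKM was at percentile 99.1 of all genes. Behind it came Col4a2 (2.68 ± 0.10 RPKM), Col5a1 (2.58 ± 0.04 RPKM), Col1a2 (2.55 ± 0.39 RPKM), and Col18a1 (2.54 ± 0.12 RPKM), a multiplexin from which endostatin is cleaved. Over the 44 genes, Spearman's rho between F/F means was 0.94 for H3K4me1 and H3K4me2, 0.89 for H3K4me1 and H3K4me3, and 0.93 for H3K4me2 and H3K4me3, with gene width shared by both measures.

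Several collagens known from tissues other than fibroblasts had low H3K4me3 levels. Col2a1, the cartilage collagen, had an H3K4me3 level of 0.29 ± 0.01 RPKM in F/F cells, though its H3K4me1 and H3K4me2 levels were 1.06 ± 0.05 and 0.80 ± 0.05 RPKM, at percentiles 66.3 and 52.3 of all genes. The head-to-head genes Col4a3 and Col4a4, chains of the glomerular basement membrane, had 0.19 ± 0.01 and 0.17 ± 0.01 RPKM. Col4a5 and Col4a6, a further head-to-head pair on the X chromosome, had 0.08 ± 0.01 and 0.09 ± 0.01 RPKM. The minor fibrillar genes Col11a1, Col11a2, Col24a1, and Col5a3 had H3K4me3 means between 0.17 and 0.19 RPKM, and Col11a1 nevertheless had H3K4me2 and H3K4me3 peaks at its start in all 6 libraries of each mark.

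Fibrillar collagens as a class had higher levels than the other collagens for each mark and in each genotype. The median H3K4me2 level of the 11 fibrillar genes was 0.79 ± 0.03 RPKM in F/F and 0.73 ± 0.04 RPKM in FC/FC cells, against 0.27 ± 0.02 and 0.23 ± 0.01 RPKM for the 33 others (SD over 3 libraries). On the log2 scale, with 0.1 added to each RPKM, the fibrillar median was above the other median by 1.28 ± 0.10 in F/F cells for H3K4me2 and by 1.34 ± 0.09 after excision. The distance was 0.70 ± 0.11 and 0.81 ± 0.15 for H3K4me1 and 0.77 ± 0.08 and 0.79 ± 0.01 for H3K4me3, and it was positive in each of the 18 libraries. Over all genes, the median H3K4me2 level was 0.71 RPKM in F/F cells, close to the fibrillar value, and the other collagens lay below it. The genotypes overlapped in this distance for all 3 marks. Gene width moves with class, since fibrillar genes had a median width of 44985 bp and the others 114404 bp, and its part in the distance was not tested. Among only those genes that passed the filter on low values, which keeps the best-marked members of each class, the H3K4me1 distance turned to -0.048 in F/F cells and to -0.15 after excision, and the H3K4me2 and H3K4me3 distances were smaller (0.54 and 0.50 in F/F cells).

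**Figure D2:**
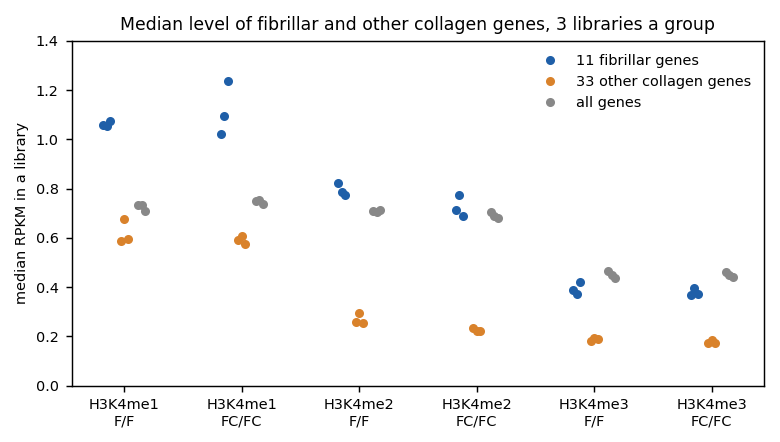
Median RPKM in each library over the 11 fibrillar collagens (blue), the 33 other collagens (orange), and all genes (grey), by mark and genotype. Each point is 1 library. Blue points lie above orange points in every group, by most for H3K4me2, while the F/F and FC/FC groups of a mark sit at nearly the same height.

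Peaks at the start sites showed which collagens carried a local mark whatever their length. A gene was counted when a peak of the library lay within 1000 bp of the start of its transcript. In all 6 libraries of the mark, 20 of the 44 collagens (45.5%) had such an H3K4me3 peak, 29 (65.9%) an H3K4me2 peak, and 19 (43.2%) an H3K4me1 peak, against 53.0%, 60.5%, and 37.9% of all genes. Among the 11 fibrillar genes the numbers were 7, 10, and 8, and among the 33 others 13, 19, and 11. In 15 genes all 3 marks were found in all libraries: the fibrillar Col1a1, Col1a2, Col3a1, Col5a1, Col5a2, and Col27a1, the type VI chains Col6a1, Col6a2, and Col6a3, the FACIT genes Col12a1, Col14a1, and Col16a1, and Col8a1, Col18a1, and Col23a1. In 8 genes no library had a peak of any mark at the start: Col17a1, the hemidesmosomal collagen of skin, Col9a1 and Col9a3 of cartilage, and Col20a1, Col22a1, Col4a6, Col6a5, and Col6a6. Col11a2 had H3K4me1 and H3K4me2 peaks in all libraries and no H3K4me3 peak, and Col25a1 had only H3K4me2.

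**Figure D3:**
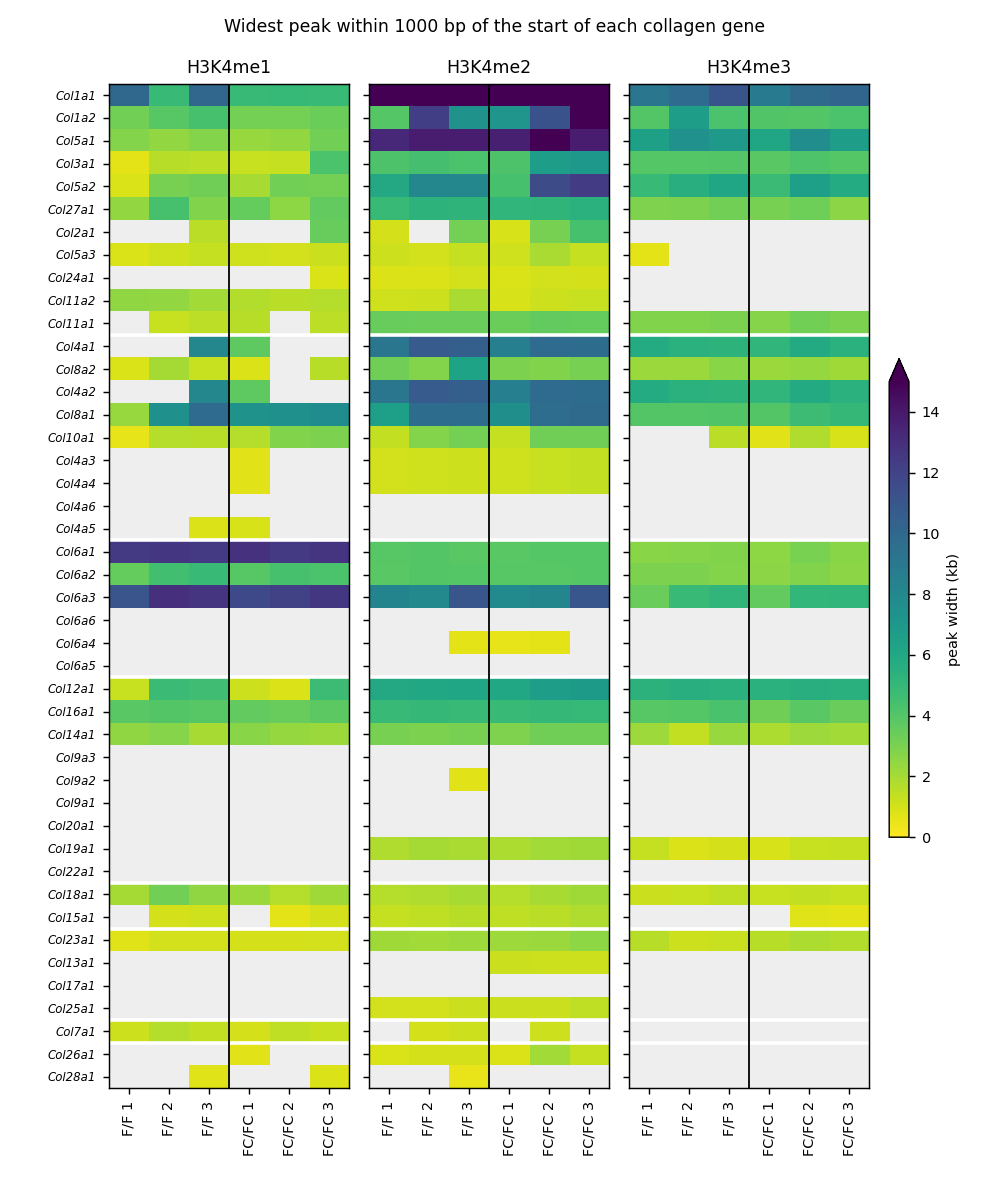
Width in kb of the widest peak within 1000 bp of the start of each of the 44 collagen genes, by library and mark. Light grey cells have no peak, white lines separate the classes, from fibrillar at the top to unclassed at the bottom, and genes of a class are ordered by H3K4me3 level. The F/F and FC/FC columns look alike for most genes. Col1a1 has the widest H3K4me3 peaks, and Col6a1 and Col6a3 have the widest mean H3K4me1 peaks in F/F cells.

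The H3K4me2 and H3K4me3 start peaks of Col1a1 were wide. In F/F cells they spanned a mean of 18693 bp for H3K4me2 and 10007 bp for H3K4me3, at the 99.8th and 99.6th percentiles of the genes with a start peak in all 6 libraries, whose medians were 3337 and 2830 bp. H3K4me2 peaks covered 88.2% of the gene and its 500 bp flanks, H3K4me1 peaks 81.8%, and H3K4me3 peaks 39.5%. The widest H3K4me1 start peaks were at Col6a1 (12501 bp) and Col6a3 (12252 bp), at the 99.6th and 99.5th percentiles. Most of the Col6a1 peak lay outside the gene, since H3K4me1 peaks covered a mean of 3180 bp (17.4%) of Col6a1 and its flanks in F/F cells. Col4a1 and Col4a2, whose starts lie 3 bp apart on opposite strands, showed a different arrangement: H3K4me2 and H3K4me3 peaks stood over their shared start in all libraries, yet an H3K4me1 peak did so in 1 F/F and 1 FC/FC library only. Over the body of Col4a1, however, H3K4me1 peaks covered 42.5, 46.3, and 45.0% of the gene in F/F and 38.1, 37.2, and 42.3% in FC/FC cells.

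Start marks and base composition did not go together in every gene. The 16 collagens with an H3K4me3 start peak in all libraries and a promoter in the table had a median of 16 CpGs in the promoter, the 16 with no such peak in any library a median of 10, and all genes 14. Col4a1 had the most, 37. Col3a1, the gene of type III collagen, had 0 CpGs and the TATA box printed above, and yet all 3 marks lay at its start in all 18 libraries, with a mean H3K4me3 width of 3983 bp in F/F cells. Col28a1 and Col9a1 also had 0 CpGs, and neither had an H3K4me3 peak at the start in any library.

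The comparison of FC/FC with F/F cells asks whether loss of MLL2 changed the marks over these genes. No collagen passed the test for any mark. On log2(RPKM + 0.1), limma called 0 of 18 collagens tested for H3K4me1, 0 of 14 for H3K4me2, and 0 of 8 for H3K4me3, with the p adjusted by Benjamini and Hochberg and a threshold of 0.05. Among all genes the shares called were 0% of 8566 for H3K4me1, 2.12% of 9986 for H3K4me2, and 0% of 9073 for H3K4me3. Only genes above 1 RPKM in at least 3 of the 6 libraries were tested, and the other collagens are described by their levels and peaks only. The smallest adjusted p of a collagen was 0.082, 0.056, and 0.99. At an unadjusted p under 0.05 there were 7 collagens for H3K4me1, 4 for H3K4me2, and 0 for H3K4me3, against 25%, 29%, and 3.71% of all genes tested. With limma-voom on the recovered reads, 7 of 18 collagens passed for H3K4me1, 1 of 14 for H3K4me2, and 0 of 8 for H3K4me3, against 8.25%, 3.71%, and 0% of all genes. Median log2 fold changes of the collagens tested were -0.07, -0.011, and 0.0061, beside -0.0029, 0.07, and 0.014 over all genes. Over all 44 genes, tested or not, the median change of the fibrillar collagens minus that of the others was -0.11 for H3K4me1, -0.018 for H3K4me2, and -0.022 for H3K4me3. Over the collagens tested it was -0.08, -0.0043, and -0.08.

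**Figure D4:**
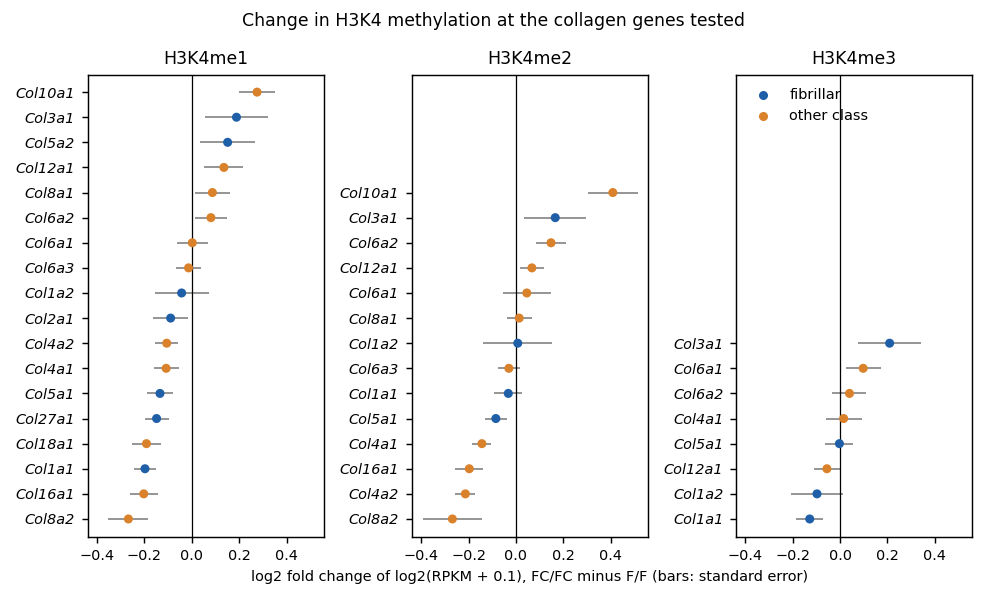
Log2 fold change of FC/FC against F/F cells, on log2(RPKM + 0.1), for the 18, 14, and 8 collagens tested for each mark. Blue points are fibrillar genes, orange points other classes, and bars are standard errors. No gene passed the adjusted threshold, and Col10a1 lies farthest to the right for H3K4me1 and H3K4me2.

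For H3K4me1, all FC/FC libraries were below all F/F libraries at 7 of the 18 collagens tested and above them at 1, where 18.7% and 11.8% of all genes tested had these patterns. Col1a1 is given above, and its log2 fold change was -0.20 (SE 0.05, limma adjusted p = 0.082). Col16a1, a FACIT gene, had 1.47, 1.37, and 1.43 RPKM in F/F and 1.29, 1.22, and 1.16 RPKM in FC/FC cells, with no overlap (log2 fold change -0.20, SE 0.06, limma adjusted p = 0.0999). Col18a1 had 2.68, 2.49, and 2.45 RPKM in F/F and 2.31, 2.25, and 2.07 RPKM in FC/FC cells, again with no overlap (log2 fold change -0.19, SE 0.06, limma adjusted p = 0.12). Col8a2, a network collagen known from the cornea, had the most negative fold change, -0.27, though its genotypes overlapped. Fold changes of Col27a1, a fibrillar collagen of growing cartilage, and Col5a1 were -0.15 and -0.13, with no overlap. Paired by the order of the library numbers, a pairing that no label states, 8 collagens passed for H3K4me1 (Col8a2, Col1a1, Col18a1, Col16a1, and Col27a1 lower and Col10a1, Col12a1, and Col3a1 higher in FC/FC cells), and this fit called 21% of all genes tested.

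Col10a1, the collagen of hypertrophic cartilage, had the largest positive fold changes for H3K4me1 and H3K4me2. Its H3K4me1 levels were 1.16, 1.14, and 1.35 RPKM in F/F and 1.39, 1.57, and 1.5 RPKM in FC/FC cells. Its H3K4me2 levels were 1.11, 1.4, and 1.32 RPKM in F/F and 1.51, 1.89, and 1.78 RPKM in FC/FC cells. For both marks all FC/FC libraries were above all F/F libraries, and the log2 fold changes were 0.28 (SE 0.07, limma adjusted p = 0.093) and 0.41 (SE 0.10, limma adjusted p = 0.081). An H3K4me3 peak stood at its start in 1 F/F library, with a width of 1546 bp, and in 3 FC/FC libraries, with widths of 677, 1770, and 891 bp. Col10a1 is 7105 bp long and lies wholly within Nt5dc1 on the opposite strand, so reads over it cannot be assigned to either gene.

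For H3K4me2, the adjoining genes Col4a1 and Col4a2 had lower values in every FC/FC library. Col4a2 had 1.62, 1.59, and 1.60 RPKM in F/F and 1.42, 1.35, and 1.34 RPKM in FC/FC cells (log2 fold change -0.21, SE 0.04, limma adjusted p = 0.056). Col4a1 had 1.37, 1.36, and 1.39 RPKM in F/F and 1.26, 1.23, and 1.22 RPKM in FC/FC cells (log2 fold change -0.14, SE 0.04, limma adjusted p = 0.090). In neither gene did the genotypes overlap, and Col16a1 was the remaining gene of this kind, with a log2 fold change of -0.20. Such genes, lower without overlap, were 3 of 14 collagens and 8.43% of all genes tested, while 2 collagens (Col10a1 and Col6a2) and 27.2% of all genes were higher without overlap. Col18a1 was just under the filter at 1.04, 0.93, and 1.03 RPKM in F/F and 0.76, 0.72, and 0.71 RPKM in FC/FC cells. Fitted without the filter, Col18a1 had a log2 fold change of -0.40 (SE 0.06, limma adjusted p = 0.033), and Col5a3 was the other collagen called there (-0.37, adjusted p = 0.039), so that 2 of 44 collagens were called beside 1.96% of all genes.

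Leaving out H3K4me2 FC/FC replicate 1, the library with the doubtful antibody label, raised the calls for that mark to 6 of 14 collagens, while those over all genes rose from 212 to 2955, or 29.6%. Col4a2, Col16a1, Col4a1, and Col8a2 were then lower in FC/FC cells, and Col10a1 and Col3a1 higher. Without that library, the log2 fold changes of Col4a2, Col8a2, and Col3a1 were -0.24, -0.37, and 0.33 (limma adjusted p = 0.012, 0.033, and 0.012). Leaving out any other single library gave 0 collagens called for each mark.

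For H3K4me3, Col1a1 was the 1 collagen of 8 tested whose FC/FC libraries all lay below the F/F libraries, a pattern that 3.87% of all genes tested had, and 0 were above, where 3.39% of all genes were. Its log2 fold change was -0.13 (SE 0.06, limma adjusted p = 0.99). Col3a1 had 0.74, 0.92, and 1.05 RPKM in F/F and 0.91, 1.23, and 1.03 RPKM in FC/FC cells, with overlapping genotypes and a log2 fold change of 0.21. Col5a2, which encodes a partner chain of type V collagen and lies beside Col3a1 on chromosome 1, was below the filter at 0.88 ± 0.13 and 0.82 ± 0.12 RPKM. The marks were also compared with each other in a single limma fit of the 18 libraries. The change of H3K4me2 minus that of H3K4me1 was called at 0 of 14 collagens and 0% of all genes, that of H3K4me3 minus H3K4me1 at 0 of 8 and 0.0171%, and that of H3K4me3 minus H3K4me2 at 0 of 8 and 0%. At an unadjusted p under 0.05 these contrasts held 1 (Col1a1, 0.17), 1 (Col12a1, -0.19), and 0 collagens.

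The length of gene covered by peaks showed lower values in FC/FC cells at some collagens. For H3K4me2, all FC/FC libraries were below all F/F libraries at 8 of the 39 collagens with a peak, or 20.51%, and above at 0, where 6.48% and 7.2% of all genes were. These shares are not matched for gene width, whose median was 114378 bp for collagens and 15616 bp for all genes. The part of width in them was not tested. In Col18a1, the H3K4me2 peaks covered 15125, 13677, and 17238 bp in F/F and 9494, 8196, and 10420 bp in FC/FC cells (exact two-sided permutation p = 0.1, the smallest that 3 libraries against 3 allow). Col4a2 had 31548, 30347, and 33723 bp in F/F and 24315, 27358, and 27568 bp in FC/FC cells, and Col4a1, Col14a1, Col15a1, Col27a1, Col6a3, and Col8a2 made up the 8. The 8 were 7 of the 28 non-fibrillar collagens with a peak, or 25%, and 1 of the 11 fibrillar ones (Col27a1), or 9.09%. For H3K4me1 the pattern held at 5 of 40 collagens, or 12.5%, against 7.02% of all genes (Col1a1, Col4a1, Col15a1, Col18a1, and Col5a3), and 0 were higher against 6.63%. By class, the H3K4me1 pattern held at 3 of 29 non-fibrillar genes, or 10.3%, and at 2 of 11 fibrillar genes, or 18.2%, the opposite order. For H3K4me3 it held at 1 of 26 (Col16a1), against 4.78% of all genes, and 0 were higher against 2.16%.

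These counts changed with the peaks and libraries used. Shares over all genes under the other settings are not given, so the counts below stand without a background. With a library left out, fewer values also have to be separated. H3K4me2 peaks numbered 62100 to 70437 in the F/F and 56112 to 58585 in the FC/FC libraries. Their total length over the genome overlapped, at 118477184 to 132988321 bp in F/F and 104415085 to 127736331 bp in FC/FC libraries. The part of either in the coverage was not tested beyond taking the same number of top-scoring peaks from each library. The count for H3K4me2 was then 3 lower and 4 higher, and that for H3K4me1 1 and 1. Without H3K4me2 FC/FC replicate 1 the same 8 genes were lower and 7 were higher (Col19a1, Col24a1, Col25a1, Col3a1, Col4a5, Col5a2, and Col6a1). For H3K4me1, the 5 became 17 without F/F replicate 1 and 10 without FC/FC replicate 3, and the 0 higher became 5 without F/F replicate 3 and 3 without FC/FC replicate 1. For H3K4me3, the 1 lower became 3 without F/F replicate 2 or FC/FC replicate 2 and 2 without either replicate 3, and the 0 higher became 1 to 3 when any library was left out.

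**Figure D5:**
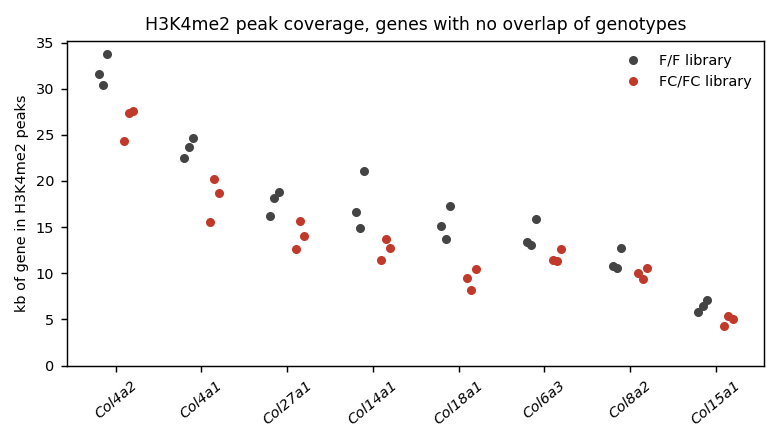
Length of gene in kb, with 500 bp on either side, covered by H3K4me2 peaks in each library, for the 8 collagens whose genotypes did not overlap. Grey points are F/F and red points FC/FC libraries. Red points lie below grey points by a wide margin at Col18a1 and by a narrow one at Col8a2.

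Single peak regions were followed by merging the peaks of the 6 libraries of a mark. A region counted as lost where each of the 3 F/F libraries had a peak and each FC/FC library lacked one, and the opposite as gained. For H3K4me2, 7 of 220 regions over collagen genes were lost, or 3.18% against 2.08% of all regions, and 1 was gained, or 0.455% against 0.101%. For H3K4me1, 2 of 314 were lost and 0 gained, where 0.793% and 0.43% of all regions were. For H3K4me3, 0 of 33 were lost and 0 gained, where 0.531% and 0.0645% were. The lost H3K4me2 regions were all away from the start, from 12207 bp into Col1a2 to 151008 bp into Col14a1. The latter (chr15:55458350-55459166), in an intron, had the highest mean score, from 134, 65.3, and 120 in the F/F libraries, on a scale whose minimum is 50. Next came intronic regions of Col27a1 (chr4:63288216-63289312) and Col15a1 (chr4:47293562-47294640). The 2 lost H3K4me1 regions overlapped exons of Col18a1 (chr10:77113365-77114884), 419 bp from an internal start of that gene, and of Col15a1 (chr4:47303086-47304270). The gained H3K4me2 region lay at the start of Col13a1 (chr10:61978204-61979427), a transmembrane collagen, with scores of 254, 131, and 80.2 in the FC/FC libraries.

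The central 200 bases of the lost H3K4me2 regions in 4 genes are given, in GRCm38.p6 and on the plus strand, because they hold the AP-1 site TGANTCA, which is in capitals and was searched on both strands. They are chr1:90803204-90803403 in Col6a3, chr10:77147298-77147497 in Col18a1, chr4:47294001-47294200 in Col15a1, and chr4:63288664-63288863 in Col27a1.
Col6a3: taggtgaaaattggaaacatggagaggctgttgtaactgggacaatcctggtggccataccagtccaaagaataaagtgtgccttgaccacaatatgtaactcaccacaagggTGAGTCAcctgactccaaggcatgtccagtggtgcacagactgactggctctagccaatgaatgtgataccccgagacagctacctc
Col18a1: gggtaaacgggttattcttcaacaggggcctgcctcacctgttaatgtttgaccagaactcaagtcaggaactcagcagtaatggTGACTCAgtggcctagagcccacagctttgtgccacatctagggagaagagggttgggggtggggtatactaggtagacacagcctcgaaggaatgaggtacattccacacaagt
Col15a1: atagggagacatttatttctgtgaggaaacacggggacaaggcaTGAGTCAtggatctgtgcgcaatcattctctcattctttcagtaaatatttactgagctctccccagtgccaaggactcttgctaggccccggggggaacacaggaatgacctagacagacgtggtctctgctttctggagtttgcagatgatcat
Col27a1: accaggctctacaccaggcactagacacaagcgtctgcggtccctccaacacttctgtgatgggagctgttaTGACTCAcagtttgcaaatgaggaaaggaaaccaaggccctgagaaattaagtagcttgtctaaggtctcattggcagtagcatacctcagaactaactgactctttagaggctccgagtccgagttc
The site was in 4 of the 7 lost regions, in 40 of all 220 H3K4me2 regions over collagens (18.2%), in 14.3% of the H3K4me2 regions of the genome, and in 19.2% of those lost. The motif was chosen with earlier results of these data known, and the 7 regions are too few for more than this count. With peaks of score 100 or more the lost regions over collagens were 3 and the gained 0, and with equal numbers of top-scoring peaks they were 1 and 3. Without F/F replicate 1 or F/F replicate 2 the lost H3K4me2 regions were 17, without FC/FC replicate 2 they were 14, and without FC/FC replicate 1 they were 7. Shares over all regions under these settings are not given, so these counts stand without a background.

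Genes that modify, fold, secrete, cleave, crosslink, and bind collagen were examined as the rest of the pathway. Of 42 such genes, 24 were tested for H3K4me1, 26 for H3K4me2, and 22 for H3K4me3. Limma called 0 for each mark, where it called 0%, 2.12%, and 0% of all genes tested. At an unadjusted p under 0.05 there were 5, 6, and 1, against 25%, 29%, and 3.71% of all genes tested. With limma-voom 4 passed for H3K4me1 (Adamts2, Itga11, Loxl2, and P4ha2), 1 for H3K4me2 (Loxl4), and 0 for H3K4me3, all lower in FC/FC cells. Over all genes these limma-voom shares were 8.25%, 3.71%, and 0%. Adamts2 (1.07 ± 0.07 and 0.91 ± 0.04 RPKM of H3K4me1) and Loxl4 (values below) had means above the filter of 1 RPKM in F/F cells only. Where a gene passes that filter through its F/F libraries, a lower FC/FC level is partly built in. With libraries paired by number order 6 of 24 passed for H3K4me1, beside 21% of all genes. Median log2 fold changes of the pathway genes tested were -0.08, 0.04, and 0.0020. Itga11, a collagen-binding integrin chain, had H3K4me1 levels of 1.33 ± 0.03 RPKM in F/F and 1.13 ± 0.06 RPKM in FC/FC cells (log2 fold change -0.22, limma adjusted p = 0.085). Loxl4, of the lysyl oxidase family that crosslinks fibrils, had H3K4me2 levels of 1.18 ± 0.03 and 0.92 ± 0.10 RPKM (log2 fold change -0.32, limma adjusted p = 0.067). P4hb, the beta subunit of prolyl 4-hydroxylase, had 2.90 ± 0.17 and 3.30 ± 0.15 RPKM of H3K4me2 (log2 fold change 0.18, limma adjusted p = 0.11). Pcolce, which enhances removal of the procollagen C-propeptide, had H3K4me3 levels of 15.5 ± 0.34 and 13.9 ± 0.87 RPKM (log2 fold change -0.15, limma adjusted p = 0.99), and P3h3, a prolyl 3-hydroxylase family member, 1.64 ± 0.03 and 1.81 ± 0.14 RPKM. Lox had the smallest p among the positive H3K4me1 changes (0.14, limma adjusted p = 0.34). Without H3K4me2 FC/FC replicate 1, 9 of the 26 passed for H3K4me2, with Loxl4, Adamts14, P4ha2, P4ha3, and Bmp1 lower and Lox, P4hb, Ppib, and Ctage5 higher in FC/FC cells, beside 29.6% of all genes tested.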

How the data were processed

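ChIP-seq of H3K4me1, H3K4me2, and H3K4me3 was analysed in 18 libraries of F/F and FC/FC MEFs, and the other 34 of the 52 samples were not used here. Per the submitters' processing notes, the authors used CASAVA 1.4, BWA 0.7.10, MACS 1.4.2, and mm10. The authors deposited RPKM over RefSeq transcripts and 500 bp of flank on both sides, not divided by H3, and peaks called per library against an H3 library, with a score of at least 50 as deposited (a multiple of the -log10 of the p-value from MACS). RPKM steps gave back whole reads (100% of values within 0.01 read).

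RPKM above 1 in at least 3 of 6 libraries was required. The tests used limma 3.58.1 (R 4.3.3) after adding 0.1 to each RPKM and taking log2 (mean-variance trend, Benjamini-Hochberg over all genes of the mark). Fold changes on this scale understate those of low genes. Peaks were intersected in Python 3.11.15 (numpy 2.4.6, pandas 2.3.3, scipy 1.17.1, matplotlib 3.10.9), with any shared base counted as overlap. Scripts were tested on simulated data.

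The members and lists were chosen with earlier results of these data known. Genes named were the fibrillar collagens, those that passed, the 2 of each other class with the most H3K4me3, neighbouring pairs, the 3 largest changes of other classes per direction, for the pathway list the smallest p per direction, and the 3 highest-scoring lost or gained regions. Others were named after their values were seen. Alternatives were the pseudocount, filter, trend, scaling, transcript, limma-voom, library pairing, peak score, start window, overlap, and leaving out each library. Whether replicates were separate cultures is not stated beyond the word independent, so p-values measure the spread between these libraries.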

Additional observations from a re-analysis of the deposited data

How the results depend on the processing

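Collagens under the filter on low values were tested only in the fit without it, and 3 libraries against 3 allow no exact permutation p below 0.1. Collagens called for H3K4me1 were 7 with limma-voom (8.25% of all genes) and 8 with a replicate block by library number order (21%, and 0 collagens without the block). For H3K4me2 they were 3 with centred medians (4.34% of all genes), 1 with limma-voom (3.71%), 2 without the filter (1.96%), 2 in 1 fit of 18 libraries (4.4%), 1 with quantile normalization (3.64%), 1 with the block (2.03%, and 0 collagens without it), and 0 to 6 when a library was left out, the 6 without FC/FC replicate 1 (29.6%). Correlations of the same-numbered deviations were 0.54, 0.28, and 0.44 (H3K4me1), 0.60, 0.71, and -0.49 (H3K4me2), and 0.63, 0.72, and -0.22 (H3K4me3). All were positive for H3K4me1 alone, and whether the order pairs the libraries cannot be told from these values. With the block, 0 collagens were called for H3K4me3, beside 0.529% of all genes. Pathway genes called for H3K4me2 were 2 with quantile normalization (3.64% of all genes), Loxl4 and P4ha3. The same genes passed with centred medians (4.34%) and in 1 fit of 18 libraries (4.4%), and Loxl4 passed with limma-voom (3.71%). Without the filter Loxl2 passed (log2 fold change -0.54, limma adjusted p = 0.025), beside 1.96% of all genes. With a library left out, 0 to 9 pathway genes passed, the 9 without FC/FC replicate 1 (29.6%). The fibrillar distance (F/F, FC/FC) with a pseudocount of 1 was 0.35 and 0.41 (H3K4me1), 0.50 and 0.49 (H3K4me2), and 0.23 and 0.23 (H3K4me3), and with 0.01 it was 1.53 and 1.64 (H3K4me2) and 1.02 and 1.06 (H3K4me3). Among genes past the filter it was -0.048 and -0.15, 0.54 and 0.53, and 0.50 and 0.44. With a score of at least 100, coverage was lower without overlap at 3 and higher at 1 collagens for H3K4me1, and lower at 5 and higher at 2 for H3K4me2, 7 non-fibrillar genes had an H3K4me1 start peak, 4 H3K4me1 regions were gained, and 3 H3K4me2 regions were lost and 0 gained. With equal numbers of top-scoring peaks, coverage was lower at 1 and higher at 1 for H3K4me1 and lower at 3 and higher at 4 for H3K4me2, and 1 H3K4me1 region was lost and 1 gained, and 1 H3K4me2 region lost and 3 gained. Without the 500 bp flanks, 1 collagen had higher H3K4me3 coverage. For these counts of coverage and regions, and for those of the next sentence, shares over all genes or regions are not given. Leaving out a library, by which fewer values have to be separated, gave for H3K4me1, H3K4me2, and H3K4me3 counts of 5 to 17, 8 to 12, and 1 to 3 lower, 0 to 5, 0 to 7, and 1 to 3 higher, 0 to 6, 1 to 2, and 0 to 1 gained regions, and 2 to 7 and 7 to 17 lost H3K4me1 and H3K4me2 regions. Small fold changes turned sign: for H3K4me2, Col1a2 to -0.055 with quantile normalization and -0.048 with centred medians, Col6a1 to -0.021 and -0.0094, and Col8a1 to -0.0060 and -0.042. Leave-one-out ranges spanning 0 were -0.079 to 0.00064 for Col1a1 (H3K4me2), -0.16 to 0.059 and -0.10 to 0.17 for Col1a2 (H3K4me1, H3K4me2), -0.051 to 0.042 and -0.057 to 0.10 for Col6a1 (H3K4me1, H3K4me2), -0.021 to 0.056 for Col8a1 (H3K4me2), -0.050 to 0.065 for Col4a1, -0.038 to 0.032 for Col5a1, and -0.021 to 0.082 for Col6a2 (all H3K4me3). Of the single-gene values with all libraries, 351 kept direction and side of the threshold, 23 newly passed it, and 6 turned sign. The cause of these differences was not tested.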

Other observations

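Col1a2, Col3a1, and Col5a2 were lowest in replicate 1 of each genotype for each of the 3 marks. The H3K4me1 level of Col1a2 was 2.15 RPKM in F/F replicate 1 against 2.58 and 2.93 RPKM in F/F replicates 2 and 3, and 2.17 RPKM in FC/FC replicate 1 against 2.5 and 2.72 RPKM. Col3a1 had 0.74, 1.02, and 1.08 RPKM in F/F and 0.93, 1.09, and 1.24 RPKM in FC/FC cells, and Col5a2 0.98, 1.20, and 1.36 RPKM and 1.16, 1.33, and 1.46 RPKM. For H3K4me2 and H3K4me3 replicate 1 was likewise the lowest in both genotypes at these 3 genes. Col8a2 was instead lowest in replicate 2 of each genotype for each mark. The genes were picked once their values were known, and the share of all genes with such a pattern is not given.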
